A study of Mus musculus with 4 samples.

Results

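Crip1, Lgals1, S100a4, S100a6, S100a10, S100a11, Anxa2 and Vim are 8 of the 32285 genes counted in single bone marrow cells of myeloma-bearing mice that received vehicle or purinostat mesylate. They were chosen by symbol, with the difference between treated and vehicle mice and the levels by neutrophil stage already known. Their own differences with treatment and between stages are therefore a description: where a member is said to be called, or to have an unadjusted p under 0.05, this places it beside the other genes of the same fit and is no independent test of it. The mice were C57BL/KawRij animals, 6 weeks old when 5TGM1-luc cells, a luciferase-carrying line of the 5T murine myeloma, were injected into a vein. Treatment followed 3 weeks later. Of the 4 mice, 2 received vehicle and 2 received purinostat mesylate (PM), an inhibitor of class I and class IIb histone deacetylases, at 10 mg/kg, and marrow was taken after 24 h. All 4 mice carried myeloma cells and all 4 marrows went through red cell lysis, so no marrow free of tumour and no untreated marrow enters these comparisons. Each library came from 1 mouse. The error of a difference between the groups comes from the spread between 2 mice per group, shrunk toward the trend over all genes of the fit. Errors of steps between stages are named where they are given.

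The 8 genes encode small or cytoskeletal proteins of the cytoplasm and the cell cortex. Crip1 encodes a short protein made mainly of a single LIM domain, a zinc-binding fold. Lgals1 encodes galectin-1, which binds beta-galactosides and is released from cells. The S100 proteins are dimers with calcium-binding EF hands that attach to target proteins when calcium rises. S100a4 binds non-muscle myosin, S100a6 is calcyclin, and S100a11 binds annexins. S100a10 no longer binds calcium and forms a complex with annexin II, the product of Anxa2, which attaches to membranes. Vim encodes vimentin, the intermediate filament protein of mesenchymal and many blood cells. In bone marrow these genes are well known from monocytes, while neutrophils are known for the S100a8 and S100a9 pair. Neutrophils form from progenitors rich in primary granule proteins (Elane, Mpo) through dividing cells and non-dividing immature cells rich in secondary granule proteins (Ltf, Camp) to mature cells that carry Cxcr2.

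On the GRCm38 build, 4 of the 8 genes lie on chromosome 3, in 2 pairs of nearby genes. S100a5 (chr3:90608523-90611780), which is no member, lies between S100a4 and S100a6. S100a4 (chr3:90603771-90606045) ends 6837 bases before S100a6 (chr3:90612882-90624181), and S100a11 (chr3:93520488-93526287) ends 28793 bases before S100a10 (chr3:93555080-93564643). The pairs are 2896307 bases apart. Crip1 lies on chromosome 12 (chr12:113146316-113153879), Anxa2 on chromosome 9 (chr9:69453620-69491795), Vim on chromosome 2 (chr2:13573927-13582826) and Lgals1 on chromosome 15 (chr15:78926725-78930465). The RefSeq promoter windows of 6 members were matched. The 250 bases before the start are shown for Crip1, S100a4 and S100a6, 3 genes that were higher in cycling neutrophil precursors of the PM mice. Capitals mark every match, on either strand, to the GC box GGGCGG, the AP-1 motif TGANTCA, the TATA box TATAAA, the CCAAT box and the E-box CACGTG.

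Crip1 promoter, chr12:113151762-113152011, plus strand: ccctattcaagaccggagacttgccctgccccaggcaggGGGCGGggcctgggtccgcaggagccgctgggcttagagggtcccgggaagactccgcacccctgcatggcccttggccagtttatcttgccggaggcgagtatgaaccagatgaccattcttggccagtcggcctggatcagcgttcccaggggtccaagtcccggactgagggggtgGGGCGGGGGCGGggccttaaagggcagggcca
S100a4 promoter, chr3:90603520-90603769, plus strand: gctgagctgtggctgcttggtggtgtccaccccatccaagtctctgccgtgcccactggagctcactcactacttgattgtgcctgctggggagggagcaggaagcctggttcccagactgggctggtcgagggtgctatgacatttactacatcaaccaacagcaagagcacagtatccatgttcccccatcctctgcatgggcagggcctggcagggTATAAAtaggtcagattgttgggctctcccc
S100a6 promoter, chr3:90612644-90612893, plus strand: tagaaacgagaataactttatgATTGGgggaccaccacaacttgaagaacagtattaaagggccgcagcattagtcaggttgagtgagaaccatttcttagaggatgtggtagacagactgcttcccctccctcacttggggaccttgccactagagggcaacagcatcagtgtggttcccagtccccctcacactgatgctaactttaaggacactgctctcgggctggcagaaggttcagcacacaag

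The 3 windows hold different motifs. The Crip1 window held 3 GC boxes, the S100a4 window held 1 TATAAA, and the S100a6 window held 1 CCAAT on the minus strand. None of the 5 motifs was common to these 3 windows. The S100a11 window held 3 GC boxes, 2 AP-1 matches and 1 E-box, the Anxa2 window 3 GC boxes, 1 AP-1 match and 1 TATAAA, and the Vim window 1 TATAAA and 2 CCAAT. Among 32851 promoters of the same length, 32.7% held the GC box, 6.75% AP-1, 12.4% TATAAA, 33.8% CCAAT and 6.02% the E-box. A match describes the letters and is no evidence of binding. The annotated Crip1 gene begins upstream of this window, so the window lies inside the longest gene model.

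The libraries held 69828595 to 109447030 UMIs over 8242 to 13848 barcodes, and 39743 cells were kept. Between any pair of libraries 0.216% to 0.421% of the barcodes of the smaller were shared. Cells with at least 1 Csf3r UMI (the G-CSF receptor of neutrophils) and no Csf1r UMI (the M-CSF receptor of monocytes) numbered 20849, or 5697 and 3887 with vehicle against 6257 and 5008 with PM. Most of them fell into early (1034 cells), cycling (2013), immature (7347), mature (7774) and inflammatory (757) neutrophil stages, named from stage markers and clustered without the 8 members. The immature markers took 1110 to 1170 of every 10000 UMIs in the cycling cells, where the cycling markers took 30.8 to 35.5, against 0.903 to 1.15 in immature cells. The early cells were mostly stem and progenitor cells by cell type, with 3.58% of them in neutrophil clusters. Depth differed between groups: the median cycling cell held 17747 and 18813 UMIs with vehicle against 14435 and 15104 with PM. Levels below are sums over the cells of 1 mouse in CPM, where 10000 CPM are 1 percent of all UMIs of those cells.

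Taken over all Csf3r+ Csf1r- cells, Crip1 stood at 61.96 and 90.14 CPM with vehicle against 207.7 and 165.4 with PM. Lgals1 was at 31.11 and 33.42 against 123.4 and 75.48, S100a4 at 22.67 and 30.28 against 74.59 and 41.94, and S100a10 at 20.16 and 23.66 against 57.35 and 31.87. Both PM mice were above both vehicle mice for these 4 genes, as they were for 48.7% of the 13858 genes tested. S100a6 was also above both vehicle mice (4359 and 3563 against 5158 and 4643), whereas Anxa2 (749.7 and 561.8 against 477.6 and 511.4), Vim (707.3 and 555 against 513.9 and 507.6) and S100a11 (1568 and 1559 against 1550 and 1241) were below them. For S100a11 the higher PM value lay close to the vehicle values. By edgeR with Benjamini-Hochberg adjustment over all genes and a log2 fold change above 0.5 (called, from here on), Crip1 alone was called higher, by 1.12 ± 0.19 (log2, SE), beside 2.03% of all genes, a count that the choice of members fixes. Without vehicle 1 no member was called. Leaving out a mouse leaves a group of 1, which is assumed to vary like the other group. Such a run shows only whether a call hangs on that mouse. Calls over all genes moved as well in such runs, so a lost call is not read as particular to the member. DESeq2 called Crip1, Lgals1, S100a4 and S100a10 higher and Anxa2 lower.

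Much of these sums did not come from neutrophil stages. Another 1924 cells passed the same gate but clustered with monocytes, B cells, T cells, progenitors, erythroid or other cells, and they made up 4.93% and 8.26% of the gate with vehicle and 12.9% and 10.3% in the PM mice. They held 82% and 85.2% of the Crip1 UMIs of the gate with vehicle and 68.5% and 60.6% in the PM mice. For S100a4 they held 82.8% to 93.3%, for S100a10 79.3% to 84.9% and for Lgals1 43.3% to 63.7%. For S100a6 it was 2.35% to 11.5%. In these other cells Crip1 differed by 0.1 ± 0.17 and Lgals1 by 0.5 on the log2 scale, and edgeR called no member there and 0% of 11985 genes higher (1 member, S100a6, had an unadjusted p under 0.05). Stage by stage values are therefore given below.

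Along the stages the 8 genes followed different courses. S100a6, S100a11 and Anxa2 went up in CPM at every step from early to mature cells in all 4 mice. The median vehicle cell held 28748 and 28564 UMIs in the early stage and 3743.5 and 3442 in the mature stage. Mean S100a11 UMIs per cell were 17.8 and 19.1 in early against 14.3 and 14.4 in mature cells with vehicle. With PM they were 16 and 14.1 against 12 and 10.3. Its rise was thus one of CPM and not of UMIs per cell. S100a6 and Anxa2 were higher in mature than in early cells by UMIs per cell as well. S100a6 went from 81.97 and 45.26 CPM in early cells to 478.9 and 395.3 in cycling, 4978 and 4615 in immature and 12760 and 11810 in mature cells of the vehicle mice. S100a11 went from 578 and 628.9 through 743.8 and 779.2 and then 1718 and 1823 to 3496 and 3865. Anxa2 went from 90.76 and 82.06 through 277.2 and 222.1 and then 847.2 and 674.1 to 1797 and 1498. From immature to mature cells the within-mouse step in CPM was 1.07 ± 0.03 (log2, SD, n = 4) for S100a11 and 1.09 ± 0.05 for Anxa2. These steps were thus close to equal with and without PM. Vim was lowest in the early cells, at 306 and 322.3 in the vehicle mice, reached 818.3 and 699.3 in cycling and 896.6 and 712.6 in immature cells, and stood at 557.1 and 387.6 in mature cells.

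Lgals1 and S100a10 were highest in early cells, at 81.36 and 67.1 CPM and at 15.41 and 12.59 in the vehicle mice, and stood at 2.75 and 1.756 and at 1.203 and 1.024 in cycling cells. The Lgals1 step between these stages was -5.26 to -2.97 on the log2 scale over the 4 mice. Crip1 stepped down in both vehicle mice (log2 step -2.45 and -1.69) and up in both PM mice (0.35 and 0.58). S100a4 rested on 6 to 27 UMIs per vehicle mouse in each of the early, cycling and immature stages. A fit had the mouse as a block, and its errors come from how the step varied over the 4 mice, shrunk toward the trend over all genes. In it S100a4 (1.42 ± 0.15), S100a6 (1.40 ± 0.08), S100a11 (1.29 ± 0.06), Anxa2 (1.30 ± 0.06) and S100a10 (0.85 ± 0.19) were called higher in mature than in immature cells. Crip1 was called lower (-0.54 ± 0.16, log2, SE). These are differences in the share of UMIs, and the median mature cell held 3160 UMIs against 6340 in immature cells. By UMIs per cell S100a10 was lower in mature cells of all 4 mice, at 0.00965 against 0.0103 in vehicle 1. S100a4 was higher in all 4, but at 0.0193 against 0.0183 in vehicle 2. Whether the S100a4 and S100a10 calls are expression was not tested. Of all genes, 23.6% were called higher and 27.5% lower in that contrast, and nothing is read from the members' count, since the stage levels were known. The lower call of Crip1 was absent without PM 1 and without PM 2.

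**Figure D1:**
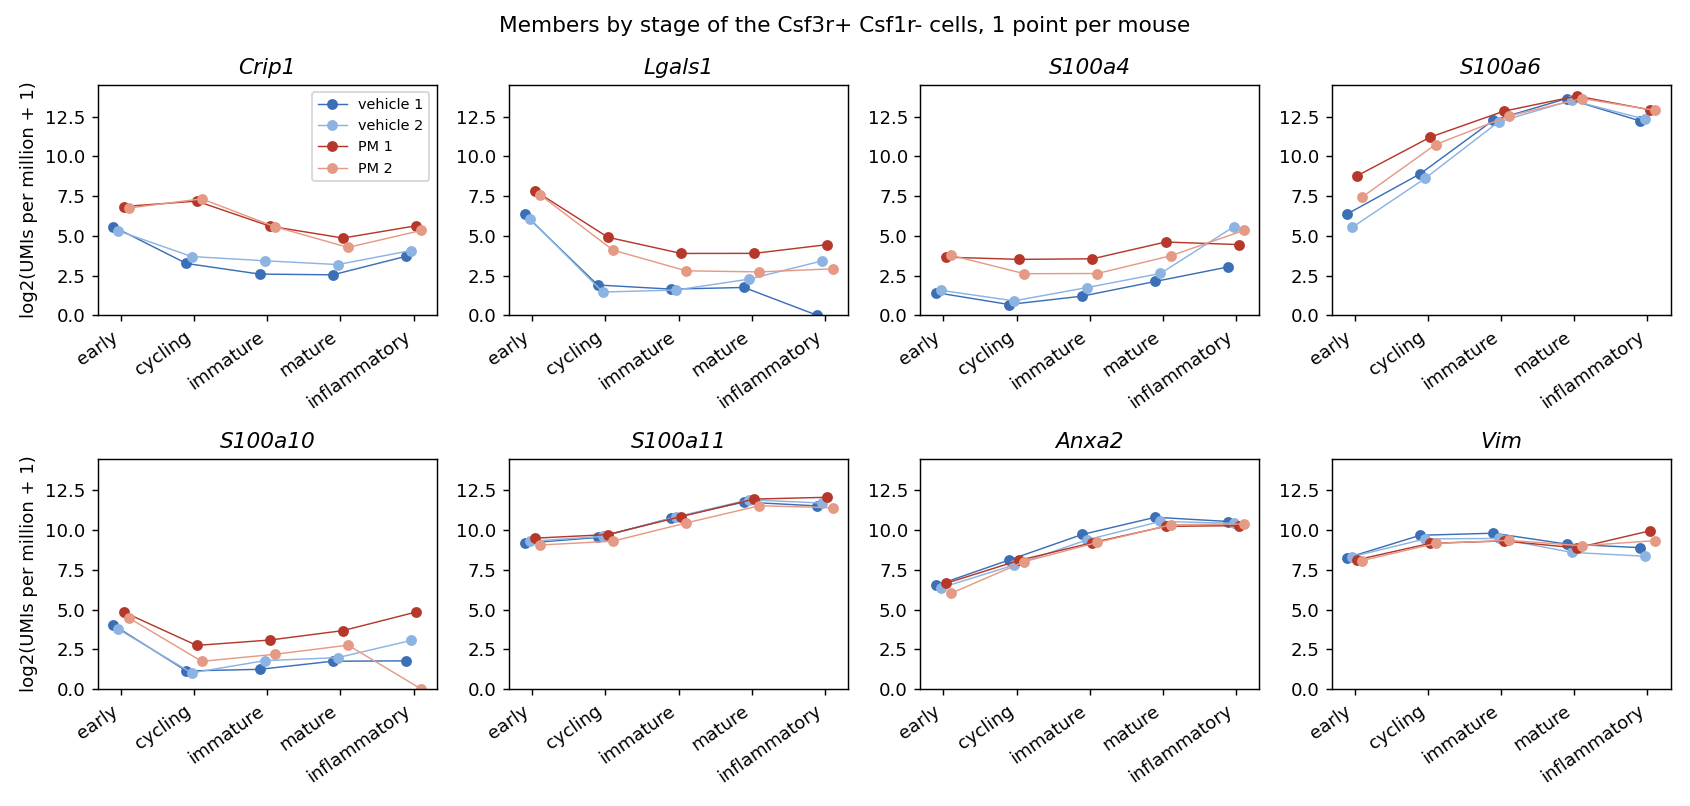
Level of each of the 8 genes in CPM (log axis) by neutrophil stage, 1 line per mouse, vehicle and PM mice in separate colours. S100a6, S100a11 and Anxa2 climb from early to mature cells in all 4 mice, and the Crip1 lines of the groups lie farthest apart in cycling cells, at 8.593 and 12 in the vehicle mice against 144.8 and 159.8 in the PM mice.

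For Crip1, Lgals1 and S100a4 the widest gap between the groups among the neutrophil stages was in cycling precursors. Crip1 had 100 and 82 UMIs there in the vehicle mice, or 8.593 and 12 CPM, and 1368 and 1088 UMIs in the PM mice, or 144.8 and 159.8 CPM. Every PM value was more than 10 times every vehicle value, and the fitted difference was 3.86 ± 0.15 (log2, SE). The median cell had 0 Crip1 UMIs in both vehicle mice and 2 in both PM mice, and the 90th percentile was 0 and 1 against 5 and 6. The difference was thus not carried by a few cells.

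The galectin gene Lgals1 had 32 and 12 UMIs in cycling cells of the vehicle group against 275 and 110 in those of the PM group, or 2.75 and 1.756 against 29.1 and 16.16 CPM (3.24 ± 0.4). S100a4 had 7 and 6 against 99 and 35 UMIs, or 0.6015 and 0.878 against 10.48 and 5.14 CPM (3.43 ± 0.5). Both genes were low in absolute terms, and PM 1 was above PM 2 for both. S100a6 is abundant already in these cells and stood at 478.9 and 395.3 CPM against 2384 and 1720 (2.19 ± 0.21). With these values the cycling cells of the PM mice lay between the cycling and the immature cells of the vehicle mice. S100a10 rested on 14 and 7 UMIs against 54 and 16, at 1.203 and 1.024 against 5.715 and 2.35 CPM (1.84 ± 0.5), and was not called.

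The other 3 genes did not share this gap in cycling cells. S100a11 was at 743.8 and 779.2 CPM with vehicle against 845.4 and 633.7 with PM, so the groups overlapped (-0.09 ± 0.18). Anxa2, whose protein binds that of S100a10, was at 277.2 and 222.1 against 273.8 and 258.5 (0.04 ± 0.14). Vim was lower in both PM mice, at 818.3 and 699.3 against 576.4 and 573.8 (-0.45 ± 0.14), and was not called. In all, 4 of the 8 members were called higher (S100a4, S100a6, Crip1 and Lgals1) and none lower (Vim had an unadjusted p under 0.05, and DESeq2 called none lower), beside 2.24% of the 10172 genes called higher and 0.295% called lower. The median difference of the members was 2.01 against -0.00324 for all genes tested, a contrast that the choice of members used. Without vehicle 1 the call remained for Crip1 alone, but calls over all genes were fewer as well. With cycling cells set by a UMI of Mki67 or Top2a in any cell of the gate, which also takes in cells that are no neutrophils, Crip1 was the only call and its difference was 1.04. In that fit 62 of 12977 genes were called higher.

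In the early cells the order of the genes was different. S100a4 had 11 and 10 UMIs with vehicle against 96 and 95 with PM, or 1.695 and 1.968 against 11.64 and 12.68 CPM (2.69 ± 0.29). Lgals1 was at 81.36 and 67.1 against 228.5 and 191.3 (1.47 ± 0.15), and Crip1 at 46.84 and 38.77 against 114 and 106.7 (1.33 ± 0.13). These 3 genes were called, beside 0.193% of 10861 genes called higher. The S100a6 values of the PM mice differed from each other, at 440.7 and 174.4 against 81.97 and 45.26 in the vehicle mice (2.27 ± 0.8, not called). S100a10 was at 15.41 and 12.59 against 27.89 and 21.36. S100a11 (578 and 628.9 against 721.2 and 534.7) and Anxa2 (90.76 and 82.06 against 99.93 and 64.49) overlapped, and Vim was at 306 and 322.3 against 280.9 and 271.6. The summed monocyte genes Fn1, F13a1, Ccr2 and Ms4a6c stood beside this at 96.9 and 73.2 against 132 and 133 CPM in early cells. As a percentage of the level in monocytes of the same mouse they were at 1.33% and 1.09% against 2.05% and 1.85%, and Crip1 was at 2.25% and 1.38% against 4.32% and 3.68%. Of the 11 monocyte and macrophage genes tested there, edgeR and DESeq2 each called 0, and 6 were higher at an unadjusted p under 0.05. Their part in the result was not tested.

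In immature cells Crip1 was at 5.041 and 9.792 CPM with vehicle against 47.86 and 46.55 with PM, from 85, 112, 556 and 484 UMIs (2.59 ± 0.27). The PM mice were nearly equal here, while the vehicle mice differed almost by a factor of 2. Lgals1 was at 2.135 and 2.011 against 13.86 and 5.963 (2.15 ± 0.48) and S100a4 at 1.305 and 2.361 against 10.76 and 5.193 (2.07 ± 0.46). These 3 were called, beside 5.47% of 10131 genes called higher. S100a10 (1.364 and 2.448 against 7.489 and 3.558, 1.48 ± 0.44) and S100a6 (4978 and 4615 against 7358 and 5968, 0.35 ± 0.17) did not overlap between groups but were not called. Anxa2 (847.2 and 674.1 against 592 and 600) and Vim (896.6 and 712.6 against 639.3 and 656.4) were below both vehicle mice, by -0.48 ± 0.15 and -0.44 ± 0.15, and were not called. Without vehicle 1, or without PM 1, Crip1 was the only member called, and calls over all genes were fewer as well. With immature cells set by Ltf or Camp UMIs no member was called by edgeR, although 3 had an unadjusted p under 0.05, and the Crip1 difference was 0.63. In that fit 8 of 8640 genes were called higher.

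In mature cells the groups stood apart for the same low genes, with smaller differences for Crip1. Crip1 was at 4.846 and 8.145 CPM against 28.1 and 18.34 (1.89 ± 0.3). S100a4, at 3.381 and 5.204 against 23.46 and 12.41 (2.11 ± 0.38), and S100a10, at 2.367 and 2.941 against 11.8 and 5.783 (1.73 ± 0.41), were called as well, beside 5.55% of 9165 genes called higher. Lgals1 was at 2.367 and 3.846 against 13.91 and 5.642 (1.71 ± 0.5, not called). The PM 1 values were above the PM 2 values for all 4 genes. The abundant members differed little: S100a6 was at 12760 and 11810 against 14280 and 12810, S100a11 at 3496 and 3865 against 3978 and 2974, Anxa2 at 1797 and 1498 against 1209 and 1290 (-0.43 ± 0.17) and Vim at 557.1 and 387.6 against 471 and 519. Without vehicle 1, Crip1 was the only member called, and calls over all genes were fewer as well. Other lists differed in the same mature cells. Of 10 monocyte and macrophage genes tested, edgeR called C1qa higher and DESeq2 called Ly6c2 higher. By edgeR, 3 of them (C1qa, Ly6c2 and Treml4) were higher at an unadjusted p under 0.05. Primary granule genes (Elane, Mpo and Prtn3 of 6 tested), secondary granule genes (Camp and Ngp of 8) and genes of handling stress (Fos, Jun, Egr1 and Hspa1b of 13) were called higher by edgeR, and the immature stage markers took 173 and 138 of every 10000 UMIs with vehicle against 235 and 257 with PM. In immature cells Fos and Fosb of 12 stress genes, Cd79b of B cells and Nkg7 of cytotoxic cells among 9 genes of other cell types, and Ms4a3 of 6 primary granule genes were called higher. Their part in the differences of the members was not tested. In the 757 inflammatory cells 6 members could be tested and none was called by edgeR or by DESeq2, with 3 (Crip1, S100a6 and Vim) at an unadjusted p under 0.05, beside 0.355% of 3661 genes called higher. Crip1 rested on 5 to 13 UMIs per mouse there. Vim was at 477.1 and 327.5 against 994.8 and 646.3 CPM (1.12 ± 0.25), and S100a6 at 4843 and 5207 against 7813 and 7643.

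**Figure D2:**
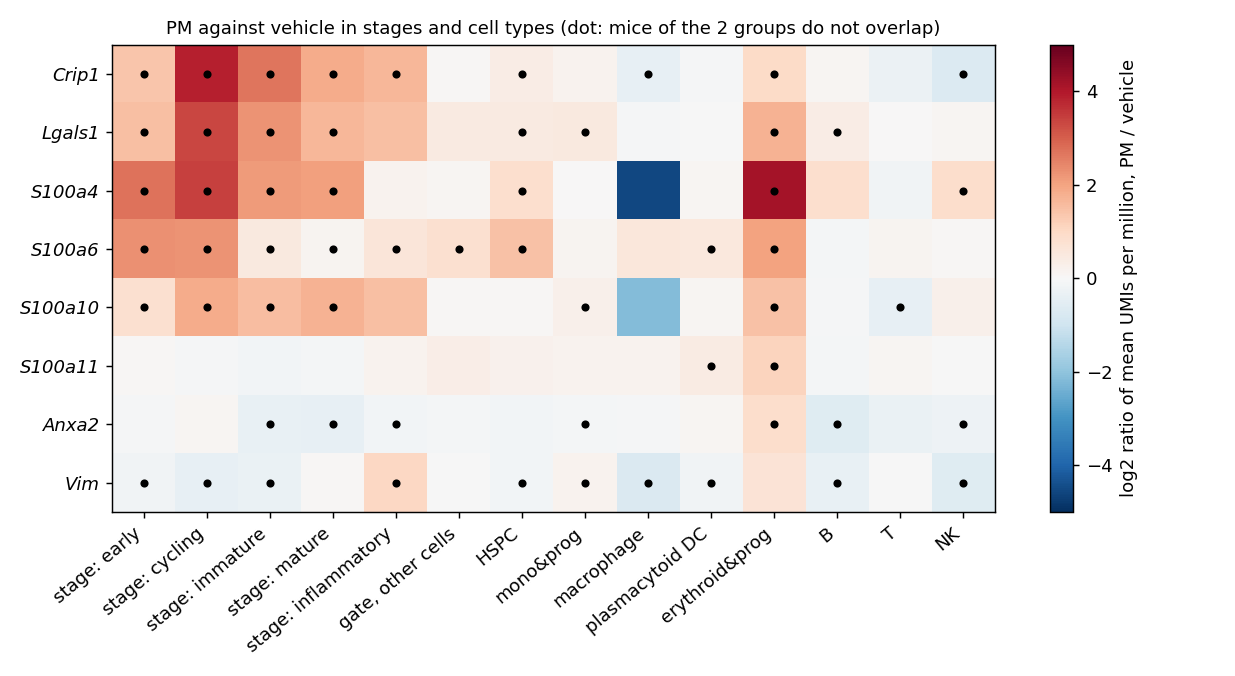
Log2 ratio of the mean level in the PM mice to that in the vehicle mice for each gene (rows) in each neutrophil stage and cell type (columns), on a colour scale with 0 in white. Dots mark values of the 2 groups that do not overlap, and the share of all genes without overlap is not given for these columns. The strongest red of Crip1 (3.89) and Lgals1 is in cycling cells and that of S100a4 in erythroid cells, and the blue of S100a4 in macrophages rests on 1 cell of vehicle 1 with 218 of 231 UMIs. The S100a4 level of erythroid cells in PM 1 (21.6 CPM) was below that of its clonal plasma cells (24.1).

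The mature and immature stages were made of different clusters in the 2 groups, so the same comparison was set out within clusters. Of the mature cells, 1397 and 531 cells of the vehicle mice but 50 and 102 of the PM mice lay in a cluster led by Wfdc17 and Steap4, and 41 and 107 against 934 and 803 lay in a cluster led by Ifit1 and Rsad2, 2 interferon-response genes. In both cycling clusters Crip1 was higher in the PM mice, at 10.5 and 13.7 against 155 and 180 CPM in the cluster led by Hist1h2ap and Top2a and at 3.88 and 8.56 against 122 and 118 in the cluster led by Fcnb and Cenpf. In the 4 immature clusters the Crip1 values were 4.68 and 12.2 against 73.6 and 94.2, 3.89 and 10.5 against 34.8 and 32.2, 6.93 and 6.94 against 29.7 and 11.6, and 1.51 and 4.8 against 31.9 and 26.6. The groups stood apart in each of these 6 clusters. Among the mature clusters they did so in the cluster led by Wfdc17 (5.82 and 8.4 against 45.7 and 14.7), in the largest one, led by Retnlg (6.37 and 8.53 against 25.3 and 15.9), and in the one led by Prok2 (2.6 and 4.75 against 51.7 and 45). In the Ifit1 cluster they overlapped, at 26 and 18.9 against 25.8 and 17.5. With vehicle, Crip1 had 43 and 36 UMIs in the whole mature stage and 85 and 112 in the immature stage. Values of the low genes in single clusters therefore rest on few UMIs, and those of the Ifit1 cluster on 41 and 107 vehicle cells. Neither overlap nor separation of these genes within 1 such cluster is firm. No share of all genes standing apart is given for the clusters, so nothing is read from the number that did. The other members did not follow Crip1 in every cluster. In the Ifit1 cluster, which held many of the mature PM cells, S100a4 (8.66 and 25.2 against 35.5 and 17) and S100a10 (8.66 and 6.31 against 17.5 and 6.82) overlapped as well. In the Prok2 cluster S100a6 was lower in both PM mice, at 11800 and 10900 against 8610 and 9760, and in the Retnlg cluster it overlapped, at 14100 and 13000 against 15400 and 12900. In the first cycling cluster S100a6 was at 477 and 357 against 2320 and 1540.

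Monocytes hold far more of Crip1, Lgals1, S100a4 and S100a10 than neutrophils, so genes that define monocytes were read in the same cells. Fn1, F13a1, Ccr2 and Ms4a6c together were at 12.5 and 8.19 CPM in cycling cells of the vehicle mice and at 19.6 and 9.55 in the PM mice. That is 0.173% and 0.122% against 0.304% and 0.132% of their level in monocytes of the same mouse. Crip1 in the same cells was at 0.412% and 0.426% of its monocyte level with vehicle and at 5.49% and 5.5% in the PM mice, and Lgals1 at 0.412% and 0.203% against 2.44% and 1.65%. The Crip1 percentages of the PM mice were thus more than 10 times those of the vehicle mice, while the 4 monocyte genes of PM 2 lay between those of the vehicle mice. S100a4 was at 0.0435% and 0.0453% against 0.619% and 0.306%. The 14 genes of a longer monocyte and macrophage list took 11.2 and 10.6 against 12.8 and 12.4 of every 10000 UMIs there, and 116, 110, 121 and 133 in monocytes. Of the 8 tested in cycling cells none was called by edgeR or DESeq2, with 1 at an unadjusted p under 0.05. Genes of other cell types did differ there. Of 8 tested, edgeR called Cd79b higher, DESeq2 called Jchain and Nkg7 higher, and 4 were higher at an unadjusted p under 0.05. Their part in the result was not tested.

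The margin was narrower at the later stages. In immature cells the 4 monocyte genes were at 0.193% and 0.152% against 0.457% and 0.188% of their monocyte level and Crip1 at 0.242% and 0.348% against 1.82% and 1.6%. In mature cells the 4 genes were at 0.31% and 0.28% against 0.69% and 0.277%, Crip1 at 0.233% and 0.289% against 1.07% and 0.632%, and S100a4 at 0.245% and 0.269% against 1.39% and 0.739%. Here the low genes of the vehicle mice stood about where the 4 monocyte genes stood. The ratio of Crip1 to S100a4 UMIs was 14.3, 13.7, 13.8 and 31.1 in cycling cells of vehicle 1, vehicle 2, PM 1 and PM 2, against 1.51, 1.45, 1.56 and 1.73 in monocytes. In mature cells it was 1.43, 1.57, 1.2 and 1.48, close to that of monocytes. The part of RNA from outside the cell in these low counts was not tested.

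Leaving out every cell with a UMI of Fn1, F13a1, Ccr2, Ms4a6c, Cd79a, Cd79b, Cd3e or Trac, an alternative chosen after seeing the data, kept 66.8% to 79.9% of the cycling cells. Crip1 was then at 9.04 and 12.4 CPM with vehicle against 154 and 177 with PM, Lgals1 at 2.67 and 1.71 against 30.2 and 16.7, S100a4 at 0.695 and 0.762 against 12.3 and 5.81, and S100a6 at 504 and 349 against 2340 and 1730. Of the early cells 24.6% to 29.9% remained. Crip1 was there at 15.1 and 23.5 CPM against 105 and 61.7, and Lgals1 at 15.9 and 19.7 against 102 and 54.2. These CPM values were below those of all early cells. S100a4 rested on 2 and 1 against 7 and 7 UMIs in the early cells that remained. In immature cells Crip1 was at 4.73 and 9.89 against 45.2 and 43.8, and in mature cells at 4.63 and 7.24 against 27 and 18.7. On the log2 scale of mean CPM the Crip1 difference was 3.95 in these cycling cells against 3.89 in all of them, 2.61 against 2.67 in immature and 1.94 against 1.84 in mature cells.

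**Figure D3:**
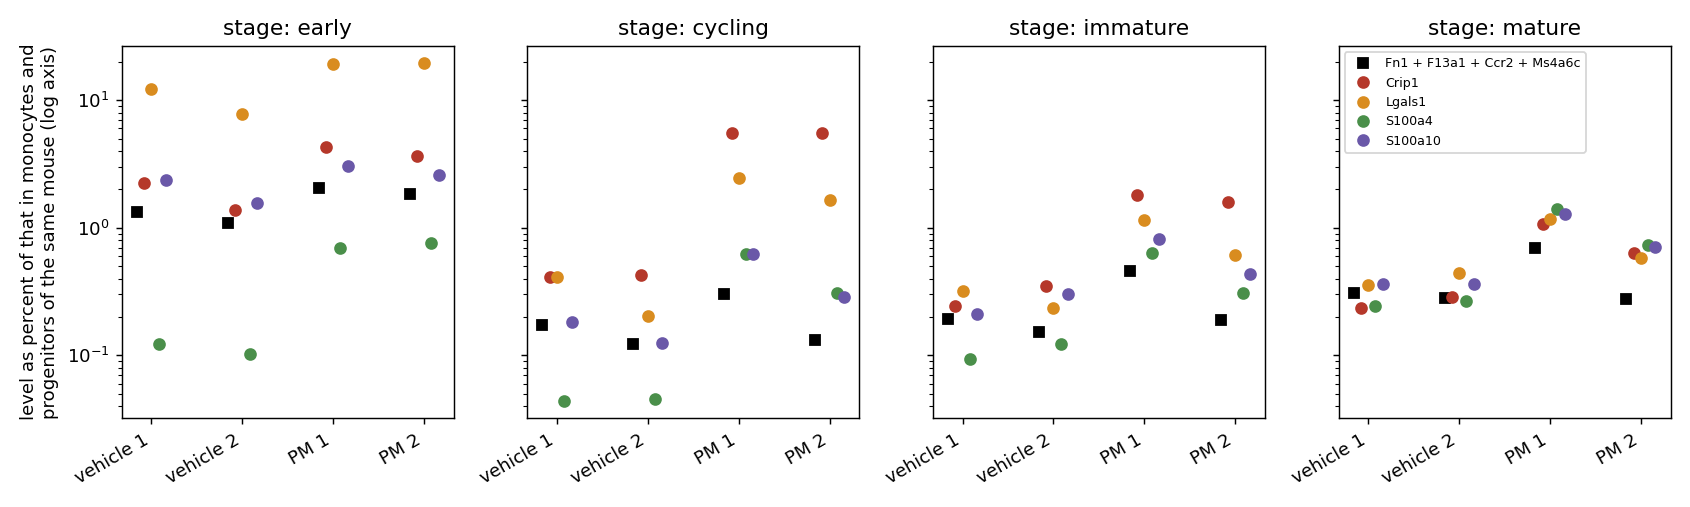
Level of Crip1, Lgals1, S100a4 and S100a10 (coloured points) and of Fn1, F13a1, Ccr2 and Ms4a6c together (black squares) in 4 neutrophil stages, each as a percent of the level in monocytes and progenitors of the same mouse (log axis). In cycling cells Crip1 lies at 5.49 and 5.5 in the PM mice with the squares at 0.304 and 0.132, while in mature cells of the vehicle mice points and squares lie together.

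Cells with a UMI were counted after thinning to 1500 UMIs, since PM cells were shallower. Cells with fewer than 1500 UMIs were left out of these shares. Of the cycling cells, 0.808% and 1.76% had a Crip1 UMI with vehicle and 17.5% and 26.6% in the PM mice, against 8.84%, 13.4%, 72.8% and 75.3% before thinning. S100a6 was found in 32% and 27% against 89.5% and 79.9% of the thinned cycling cells. Lgals1 was found in 0.485% and 0.293% against 3.92% and 1.16%, and S100a4 in 0.323% and 0% against 1.47% and 0.926%, which are shares of a few cells. In the other stages the thinned Crip1 share was 3.81% and 4.24% against 12.4% and 12% (early), 0.679% and 1.23% against 6.84% and 5.33% (immature) and 0.917% and 1.56% against 4.01% and 2.48% (mature). Both PM mice were above both vehicle mice at each of these 4 stages, and the share of all genes for which this held is not given. Over all Csf3r+ Csf1r- cells the thinned share was 3% and 4.34% against 11.8% and 9.71%.

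As a measure of background, the 171 plasma cells of a cluster in which 98.1% of the cells with a light-chain V gene were led by Igkv10-96 were read in the same way; these clonal cells lie outside the myeloid lineage. At medians of 29625 to 40933 UMIs a cell, 9.52% of 21 cells, 3.7% of 27, 35.9% of 92 and 12.9% of 31 had a Crip1 UMI in vehicle 1, vehicle 2, PM 1 and PM 2. After thinning these shares were 0%, 0%, 5.43% and 0%, where 0 cells allow shares of up to 14.3%, 11.1% and 9.68% (counting error only). The thinned Crip1 share of cycling cells lay above that of clonal plasma cells in both PM mice, and the shares of immature and mature cells did not lie clearly above it. By CPM, Lgals1, S100a4 and S100a10 of PM 1 were not above this background in cycling, immature and mature cells. The clonal plasma cells of PM 1 held Lgals1 at 30.9 CPM, S100a4 at 24.1 and S100a10 at 20.4, where its cycling cells held 29.1, 10.48 and 5.715, and they held Crip1 at 71.3, above its immature cells (47.86). Of the clonal cells of PM 1, thinned, 3.26% had an Lgals1 UMI and 1.09% an S100a4 UMI, against 3.92% and 1.47% of its cycling cells. In PM 2 the clonal plasma cells held Crip1 at 5.84, Lgals1 at 4.17 and S100a4 at 0.834 CPM, where its cycling cells held 160, 16.2 and 5.14. Fn1, F13a1, Ccr2 and Ms4a6c together stood at 69.1 CPM in the clonal plasma cells of PM 1 and at 14.2 in those of PM 2. In PM 1 they were at 19.6 in cycling and 29.4 in immature cells, so this background differed between mice and populations. The PM 1 levels behind the Lgals1 calls in cycling and immature cells did not exceed it. Whether they are expression was not tested, and they are not read as such. The same holds for the S100a4 calls in early, cycling, immature and mature cells, and in erythroid cells (21.6 CPM in PM 1). It also holds for the S100a10 call in mature cells (11.8 in PM 1). The Crip1 calls in immature and mature cells (47.86 and 28.1 in PM 1) share this limit. In early cells Lgals1 of PM 1 stood at 228 CPM, above the clonal plasma cells. In monocytes and progenitors the thinned Crip1 share was 84.7% and 92.3% against 93.8% and 93.3%. Free RNA gives UMIs in cells that do not express a gene, so shares of immature and mature cells are not read as expression by themselves. Per cell the clonal plasma background was uneven: 92 such cells of PM 1 held 231 Crip1 UMIs, against 556 in its 1992 immature cells. Called doublets were 4.48% of PM 1, 1.01% to 1.9% of the other libraries and 0% of the clonal cluster. Of simulated doublets 16.4% to 37.9% were recovered. The part of free RNA and of doublets in this background was not tested.

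**Figure D4:**
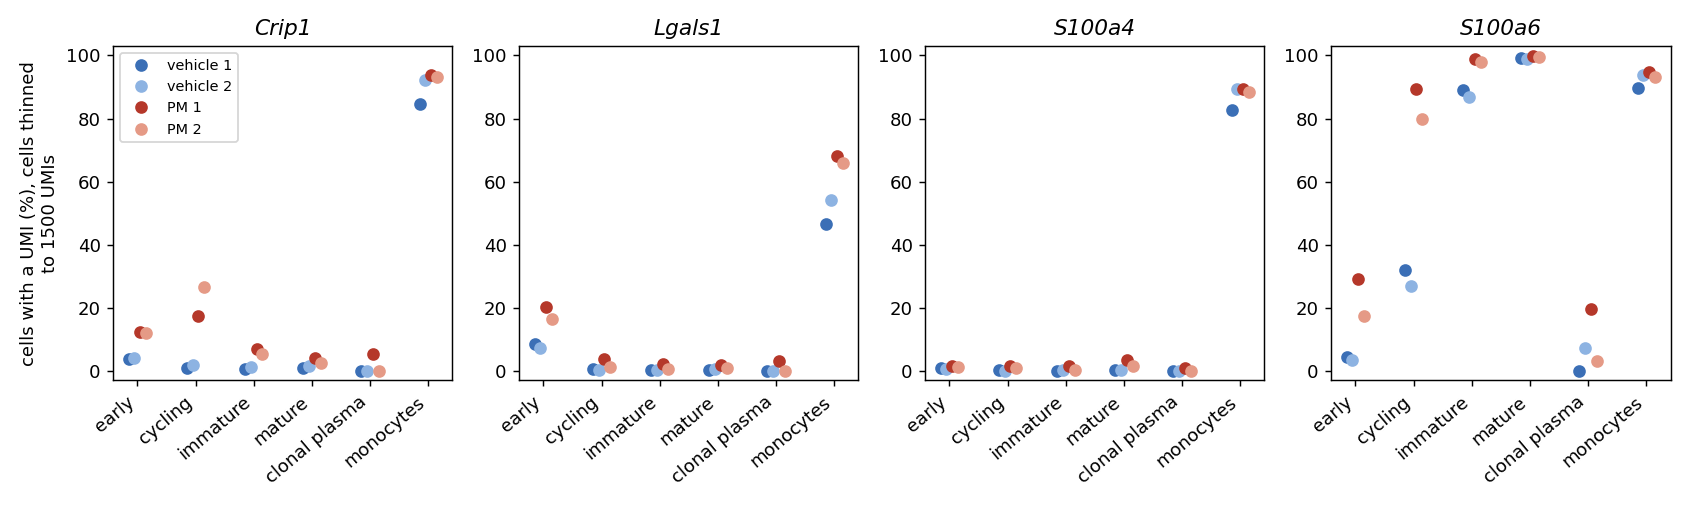
Percent of cells with at least 1 UMI of each gene after thinning to 1500 UMIs, by stage and mouse, with shallower cells left out. In cycling cells the Crip1 points of the PM mice are at 17.5% and 26.6% and those of the vehicle mice at 0.808% and 1.76%, and S100a6 is at 89.5% and 79.9% against 32% and 27%.

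Outside the neutrophils the 8 genes had different homes. Crip1, S100a4, S100a10, Anxa2 and Vim had their highest mean level over the 4 mice in monocytes and progenitors among 13 cell types. Crip1 was at 2083 and 2815 CPM there with vehicle against 2636 and 2903 with PM, followed by plasmacytoid dendritic cells (1590 to 2180 over the 4 mice), whose range overlapped with it. S100a4 (1382 and 1937 against 1692 and 1680), S100a10 (652.1 and 814.2 against 916.3 and 819) and Vim (1510 and 1637 against 1735 and 1817) did not overlap with the next type in order. Anxa2 (773 to 897) overlapped with neutrophils (620 to 891). Lgals1 had its highest mean in plasmacytoid dendritic cells (938 to 1360), overlapping with monocytes. S100a6 (4530 to 7270) and S100a11 (1620 to 2000) were highest in neutrophils, and S100a6 overlapped there with the CXCL12-rich stromal cells. Crip1, Lgals1 and S100a10 had their lowest mean in neutrophils, and the other 5 in plasma cells. The means at the lower end of each of these orders overlapped with those of the neighbouring type.

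In monocytes and progenitors no member was called with PM by edgeR or DESeq2, and Lgals1 alone had an unadjusted p under 0.05, beside 1.25% of 11723 genes called higher. Lgals1 was at 667.8 and 863.4 CPM with vehicle against 1193 and 976.3 with PM. It was called higher in the monocytes without Mki67 or Top2a UMIs (356.1 and 404.8 against 681.3 and 602, 0.75 ± 0.15, beside 1.7% of genes) and in those with Ace or Treml4, genes of non-classical monocytes (344.5 and 503.1 against 933.8 and 789, 1.02 ± 0.22, beside 1.13%). Lgals1 was also called higher in T cells with Ccl5, at 111.2 and 126.8 against 224.3 and 190.5 (0.82 ± 0.17, beside 0.103% of genes). In each of these 3 populations both PM mice were above both vehicle mice. The share of all genes for which this held is not given for them, so nothing is read from it.

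In lymphocytes members differed in both directions, and none was called lower. In T cells without Ccl5 that held Lef1 or Ccr7, genes of naive T cells, Crip1 was at 1157 and 2144 CPM with vehicle against 782.8 and 669.6 with PM, S100a4 at 616.8 and 1239 against 298.9 and 278.4, and S100a10 at 1208 and 943.3 against 326.1 and 273.6. The vehicle values came from 10 and 30 cells, and edgeR called no member there and 0% of 5044 genes lower, with 5 members at an unadjusted p under 0.05. NK cells held Crip1 at 739.3 and 1016 against 587.6 and 514.4, and B cell precursors (Vpreb1, Igll1 or Dntt without Ighd) at 2470 and 1805 against 1344 and 1222. Over all B cells Crip1 overlapped between groups, at 697 and 821.4 against 850.6 and 774.5, and Anxa2 was at 85.4 and 50.84 against 49.35 and 38.97. S100a4 was higher in both PM mice in NK cells, at 82.15 and 160 against 239.1 and 202.1 (0.87 ± 0.3, not called), and in Ighd+ B cells, at 6.807 and 22.41 against 43.55 and 27.87 (0.98 ± 0.34, not called). Lgals1 in Ighd+ B cells was at 49.92 and 54.58 against 84.77 and 65.93 (0.51 ± 0.2, not called). No member was called by edgeR in B cells, their precursors, Ighd+ B cells or NK cells. At an unadjusted p under 0.05 stood Anxa2 and Vim, both lower, in all B cells, Crip1, lower, in the precursors, Lgals1 and S100a4, higher, and Vim, lower, in Ighd+ B cells, and S100a4, higher, and Crip1 and Vim, lower, in NK cells, and DESeq2, run on B and NK cells, called none. Of all genes 3.27% were called lower in B cells, 0.0146% in their precursors and 0.401% in NK cells.

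In erythroid cells and their progenitors S100a4 (1.115 and 1.506 against 21.6 and 25.69 CPM, from 2 and 7 against 111 and 109 UMIs, 4.00 ± 0.37) and S100a6 (162.8 and 154.5 against 673.8 and 599, 1.94 ± 0.17) were called higher, beside 0.0488% of 10252 genes. Crip1 was at 48.51 and 75.32 against 135.4 and 108.2 and Lgals1 at 6.133 and 9.039 against 24.71 and 26.39. The 4 monocyte genes stood beside them at 13.9 and 13.3 against 79.4 and 73.8 CPM. S100a4 of PM 1 (21.6) lay below its level in the clonal plasma cells of that mouse (24.1 CPM). Of 11 monocyte and macrophage genes tested there, edgeR called 1 higher (Fn1). The part of these genes in the result was not tested. In haematopoietic stem and progenitor cells S100a6 was at 158.2 and 124.8 against 552.5 and 230.9 and Crip1 at 195.3 and 231.3 against 304.2 and 244.4, and no member was called by edgeR or DESeq2 (Lgals1 had an unadjusted p under 0.05), beside 0.233% of genes called higher. Macrophages held Crip1 at 366.4 and 403.7 against 265.4 and 315.4. Their S100a4 level of 1160 in vehicle 1, against 24.38 in vehicle 2 and 46.44 and 3.252 in the PM mice, came from 2 of 65 cells, 1 of which held 218 of the 231 UMIs. Over the 13 cell types, 3 pairs of a member and a type were called higher (Crip1 in neutrophils, beside 4.77% of genes there, and the 2 in erythroid cells) and none lower, with 3 to 15 and 0 to 4 when 1 mouse was left out.

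Relatives of the members were tested over all genes by the same edgeR fit. None of the 5 tested S100 genes outside the group passed in the Csf3r+ Csf1r- cells, by edgeR, DESeq2 or an unadjusted p under 0.05. Within the stages S100a1 was called higher in mature cells by both tools, at 2.7 and 4.75 against 13.6 and 7.62 CPM (1.57 ± 0.38, edgeR adjusted p = 0.0386). S100a8, of the calprotectin pair, was at 109000 and 105000 CPM with vehicle against 93000 and 86000 with PM (-0.45 ± 0.27, adjusted p = 0.335), and S100a9 was at 103000 in both vehicle mice and at 109000 and 93500 in the PM mice (-0.21 ± 0.27, adjusted p = 0.661). In cycling cells, where S100a4 and S100a6 stood apart, S100a8 differed by -0.06 ± 0.22 and S100a9 by 0.03 ± 0.22. Of the galectins, none of 5 passed in the gate and none of 4 in cycling cells by either tool, with none at an unadjusted p under 0.05. Lgals3 was at 394 and 350 against 345 and 298 (adjusted p = 0.23). Of 8 annexins in the gate none passed by edgeR, 2 were higher and 3 lower at an unadjusted p under 0.05, and DESeq2 called Anxa6 higher and Anxa1 and Anxa11 lower. Anxa6 was called higher by edgeR in cycling cells, at 4.12 and 5.85 against 18.6 and 15.1 (1.76 ± 0.24, adjusted p = 0.00282), in immature cells, at 23.9 and 32.2 against 65.2 and 48.6 (0.91 ± 0.21, adjusted p = 0.041), and in mature cells, at 18.1 and 25.3 against 43.4 and 32.7 (0.82 ± 0.21, adjusted p = 0.0434). Anxa3 was called higher in monocytes, at 76.3 and 86 against 132 and 127 (0.64 ± 0.11, edgeR adjusted p = 0.0251). In B cells S100a8 (8370 and 7530 against 5300 and 4490, -0.70 ± 0.16, edgeR adjusted p = 0.00864) and Lgals9 (302 and 344 against 192 and 210, -0.70 ± 0.14, edgeR adjusted p = 0.00468) were called lower. So were 3.27% of all genes there, among them 3 of 8 secondary and tertiary granule genes (Ltf, Ngp and Lcn2) and 1 of 9 late neutrophil genes (Il1b). S100a8 was far higher in the Csf3r+ Csf1r- cells, and the part of free RNA in its B cell values was not tested.

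Among 36 genes of binding partners and the actin cortex, 33 were tested in the Csf3r+ Csf1r- cells, with 3 called higher (Ahnak, Itgb7 and Tmsb10) and none lower by edgeR, 6 lower at an unadjusted p under 0.05 and 3 lower by DESeq2. The list had a median of -0.32 against 0.0153 for all genes. Tmsb10, an actin monomer-binding thymosin, was at 203 and 199 CPM with vehicle and at 389 CPM in PM 2, with PM 1 above it (0.88 ± 0.18, edgeR adjusted p = 0.0366). Ahnak, a giant scaffold protein that binds the S100a10 and annexin II complex, was at 20.8 and 24.6 against 41.6 and 37.3 (0.62 ± 0.12, edgeR adjusted p = 0.0361). These are values of the whole gate, which also holds cells outside the neutrophil stages. Within the stages Ahnak was called in none by edgeR or DESeq2, with an unadjusted edgeR p under 0.05 in immature cells. In cycling cells 3 of 32 were called higher: the actin-capping gene Capg, Tmsb10 and the tropomyosin gene Tpm4, named here after their values were seen. Tmsb10 was at 136 and 127 against 328 and 323 there (1.25 ± 0.12, edgeR adjusted p = 0.000256), Tpm4 at 6.87 and 4.68 against 30.6 and 27 (2.23 ± 0.21, edgeR adjusted p = 0.000152) and Capg at 44.6 and 49.5 against 115 and 88.9 (1.08 ± 0.17, edgeR adjusted p = 0.00831). Of the LIM domain genes outside the group, 1 of 22 was called higher in the gate (Csrp2) and none of 15 in cycling cells by edgeR or DESeq2, with 1 at an unadjusted p under 0.05. None of 7 genes of other intermediate filaments and lamins was called in the gate by either tool, with 3 at an unadjusted p under 0.05.

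Across cell types the 8 genes formed 2 blocks. Over 52 sums (13 cell types in 4 mice, which share their libraries and so their depth), Crip1, Lgals1, S100a4 and S100a10 had Pearson r of 0.806 to 0.909 with each other on the scale of log2(CPM + 1). S100a6, S100a11, Anxa2 and Vim had 0.665 to 0.904. Between the blocks r ran from -0.0471 to 0.626. The genes of the first block had their lowest or next to lowest mean in neutrophils. Among 3604 other genes whose mean reached 50 CPM, those most like Crip1 were Ikbkb, Dock10 and Tmsb10 (r 0.863 to 0.869), those most like Lgals1 were Arhgdia, Sptssa and Tmem160, and those most like S100a4 were Ccr2, Ms4a4c and Otulinl. For S100a10 they were Dock10, Zdhhc21 and Tmsb10. In the second block, S100a6 was most like Xdh, Slfn1 and Mmp8, S100a11 most like Ostf1, Prdx5 and B430306N03Rik, Anxa2 most like Myo1f, Fosl2 and Xdh (Myo1f r 0.968), and Vim most like Arpc1b, Sh3bgrl3 and Actg1 (Arpc1b r 0.956). Otulinl was closest to the mean of the 8 (r 0.915), followed by Glud1, Tmsb10, Tnfrsf1b, Laptm5, Ccr2, Brk1, Pitpna, Parp8 and Capzb.

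**Figure D5:**
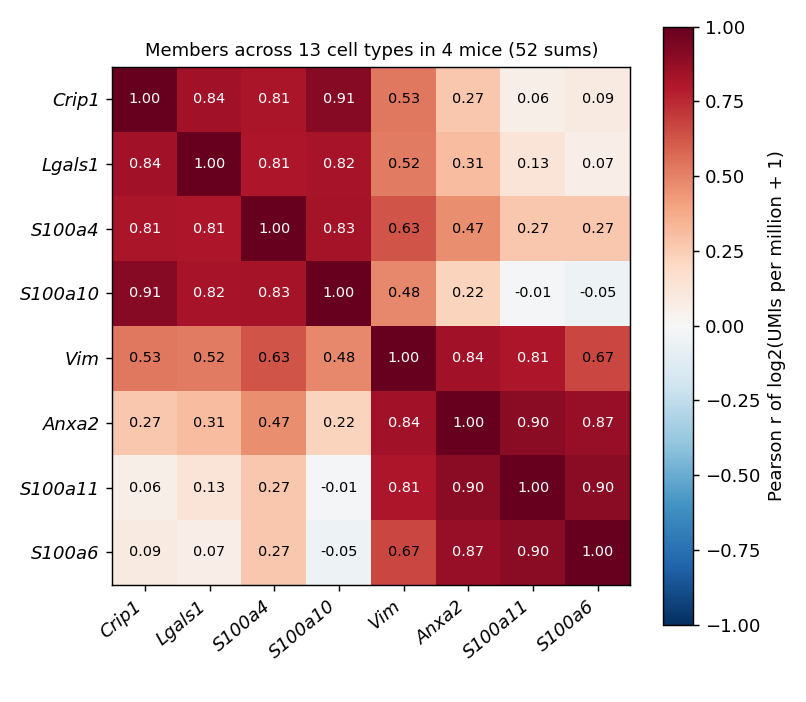
Pearson r between the 8 genes over 52 sums of 13 cell types in 4 mice, on log2(CPM + 1). Crip1, Lgals1, S100a4 and S100a10 form the upper left block (0.806 to 0.909), S100a6, S100a11, Anxa2 and Vim the lower right one (0.665 to 0.904), with values from -0.0471 to 0.626 between them.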

How the data were processed

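Bone marrow cells of 4 myeloma-bearing mice (2 vehicle, 2 PM) were profiled with a 10x 3' single-cell kit. The deposited matrices hold raw UMI counts per gene and cell, made by the authors with Cell Ranger (6.0.1 in the file headers; STAR also in the submitters' processing notes) and not normalized. The study's methods name GRCm38 and the submitters' notes GRCm39, so the gene coordinates given are those of GENCODE M21 on GRCm38 and the promoters those of RefSeq on GRCm38.p6, matched by gene ID (32158 of 32285 found) or symbol. Depth was 69828595 to 109447030 UMIs per library, and sums of few UMIs carry counting error on top of the spread between mice.

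Barcodes needed 300 genes or more, and 20% mitochondrial UMIs or fewer; those kept were scaled, reduced to 30 principal components and clustered (leidenalg 0.10.2, resolution 1) without the 8 members, in the gate with 20 components at resolution 0.8. Clusters were named from marker lists, with thresholds for naming set after the clusters were seen; 704 cells stayed unnamed. Doublets were scored against simulated ones and kept in the main results. UMIs were summed per mouse and population and fitted with edgeR 4.0.16 (R 4.3.3, TMM, filterByExpr, robust quasi-likelihood test), with calls made where the p adjusted by Benjamini-Hochberg over all genes tested was under 0.05 and the absolute log2 fold change was over 0.5. Alternatives were DESeq2 1.42.0, other size factors, no filter, other gates and stages, a replicate block and leaving out each mouse. On simulated data with 200 changed genes, recovery at a log2 change of 1 was 47.5% in T cells, 54.1% in mature cells, 66.3% in the gate, 71% in immature cells, 73.6% in B cells, 74.8% in monocytes, 78.8% in cycling cells and 80.6% in stem and progenitor cells, and at 2 it was 88.7% to 95.7%. In the same runs 6 (cycling cells) to 21 (stem and progenitor cells) unchanged genes were called. With no gene changed 16 calls were made in the gate, 15 in monocytes, 6 in immature cells, 1 in B cells and 0 in the other 4.

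The members and the lists were chosen with earlier results of these data known. Non-member list genes were named where called, if their mean reached 20 CPM and the groups did not overlap, up to 12 with the largest change in the gate and in monocytes, as was any tested S100, annexin or galectin gene; likeness used genes of at least 50 CPM.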

Additional observations from a re-analysis of the deposited data

Results flagged for a closer look

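For some members both PM mice lay above both vehicle mice in one population and below them in another, over 16 populations with at least 50 cells in every mouse or a stage; none of these differences between populations was itself tested. Of the pairs named here edgeR called Crip1 in cycling cells alone, so the other values are differences of means that did not pass. Over all Csf3r+ Csf1r- cells 48.7% of the 13858 genes tested lay above both vehicle mice. Such shares are not given for the 16 populations, so nothing is read from the counts of populations. Crip1 was higher in both PM mice in 8 populations, most in cycling neutrophil precursors (log2 ratio of mean CPM 3.89), and lower in macrophages (-0.407), where 72.6% of the Crip1 UMIs of vehicle 1 came from 5 of 65 cells. S100a10 was higher in monocytes and progenitors (0.243), where PM 2 lay close to vehicle 2, and lower in T cells (-0.405). Cells with Ccl5 were 180 of 214 and 143 of 211 T cells with vehicle against 417 of 729 and 294 of 478 with PM. Among them S100a10 differed by -0.13 ± 0.16 (log2, SE). In those without Ccl5 that held Lef1 or Ccr7 it differed by -1.67 ± 0.26, not called. Anxa2 was higher in erythroid cells and progenitors (0.895), where the monocyte genes Fn1, F13a1, Ccr2 and Ms4a6c also stood at 79.4 and 73.8 against 13.9 and 13.3 CPM, and lower in 7 populations, by most in B cells (-0.625). Vim was higher in inflammatory neutrophils (1.03) and lower in 9 populations, by most in macrophages (-0.71), where 85.9% of the Vim UMIs of vehicle 1 came from 5 cells.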

How the results depend on the processing

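Counts of members called higher moved with the setting as follows. In the Csf3r+ Csf1r- cells 1 was called, beside 281 of 13858 genes. It was 2 with library totals only (beside 1032 genes), 4 with DESeq2 (326) and 4 with no filter on low counts (829 of 20489). With stages set from marker UMIs, cycling cells had 1 call in place of 4 (62 of 12977 genes in place of 228 of 10172). Immature cells had 0 in place of 3 (8 of 8640 genes in place of 554 of 10131), with 3 members at an unadjusted p under 0.05 by edgeR. Mature cells had 1 in place of 3 (579 of 11286 genes in place of 509 of 9165). These sets take in gate cells that are no neutrophils. The counts over all genes moved as well, here and in the runs without 1 mouse given next, so nothing is read from the members' counts. Leaving out 1 mouse gave 3 to 4 calls in early, 1 to 5 in cycling, 1 to 4 in immature and 1 to 4 in mature cells. Over cell types 3 pairs were called higher, 6 with DESeq2, 12 with no filter and 3 to 15 without 1 mouse, and 0 lower, with 0 to 4 without 1 mouse. For mature against immature cells 1 member was called lower, 0 with RLE size factors or DESeq2, 4 with stages from UMIs and 0 to 1 without 1 mouse, while 5 were called higher each time a mouse was left out. Of the list genes 4 were called higher in the gate (0 to 6 without 1 mouse) and 0 lower (6 with DESeq2, 0 to 2 without 1 mouse), and 3 higher in monocytes (0 to 8) with 0 to 1 lower. The median share difference over members, PM minus vehicle, was 2.24 percentage points in the gate (4.98 not thinned, 0.717 at 2 UMIs), 1.78 in cycling (5.39, 0), 0.728 in immature (2.05, 0.0254) and 0.7 in mature cells (1.26 thinned to 3000 UMIs, 0.0867 at 2 UMIs). The cause of these shifts was not tested. Library totals only moved the median of all genes in the gate to 0.21, and no called member changed sign under any setting run.

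The replicate numbers of the groups pair nothing the labels name. Same-numbered mice had correlations of their deviations of -0.199 in the gate and -0.0777 in cycling cells. With the replicate block 2 members were called higher in the gate, beside 213 of 13858 genes in place of 281. In early cells it was 5, beside 149 of 10861 genes in place of 21. Over cell types 5 pairs were called higher and 2 lower, and the shares of all genes are not given for these. Nothing is read from the members' counts under the block. Depth limits S100a4, S100a10 and Lgals1 most, since they rest on 6 to 36 UMIs per vehicle mouse in cycling and immature cells, and S100a4 in erythroid cells and progenitors, on 2 and 7.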
